A study of Mus musculus with 6 samples.

Results

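The 44 genes described here are genes of DNA replication and cell division, chosen by name with earlier results of these data known. All 44 were found by symbol among the 50385 genes of the count matrix. They were read as 17 genes of S phase, when DNA is copied, and 27 genes of mitosis, when chromosomes are separated and the cell divides. RNA came from whole hearts of male Mdx/Utrn dKO mice, which lack dystrophin, the protein lost in Duchenne muscular dystrophy, and also utrophin, a protein much like it. Treatment began at an age of 2 to 3 months. The 3 setanaxib libraries come from mice that received setanaxib, which inhibits the hydrogen peroxide-producing enzyme Nox4, by gavage at a daily 60 mg/kg over 12 weeks, and the 3 vehicle libraries from mice that received the vehicle, corn oil, for the same time. All mice in the comparison carry the same mutations and no healthy heart is among them, so the values show a difference between treatments within this disease model only. The labels give each sample a number of its own but do not say in words that each is 1 animal, so a p-value here measures spread between libraries, which may be technical.

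A cell commits to division when cyclin E and its kinase free the E2F transcription factors, which switch on the genes of DNA replication. Later the transcription factor Foxm1, with the MuvB complex bound at promoter elements called CHR, switches on the genes of mitosis. Adult heart muscle cells rarely divide, and dividing cells of a diseased heart are mostly fibroblasts, endothelial cells and immune cells. In RNA from a whole heart, fewer dividing cells and less RNA per dividing cell cannot be told apart.

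The promoters of the genes are described first. RefSeq's promoter table (build GRCm38.p6, 250 bases before the start to 50 after it, first entry of each gene) held 36 of the 44 genes, 22 mitotic and 14 of S phase. The CHR words TTTGAA or TTCGAA, on either strand, were present in 18 of 22 mitotic promoters (81.8%) and in 2 of 14 S-phase promoters (14.3%), against 19.4% of all 27025 promoters of the table. The E2F words TTGGCGC or TTCCCGC or TTCGCGC or TTGCCGC were present in 4 of 22 mitotic promoters (18.2%) and in 9 of 14 S-phase promoters (64.3%), against 9.69% of all. The CCAAT box, the site of the factor NF-Y, was in 18 of 22 mitotic (81.8%) and 9 of 14 S-phase promoters (64.3%), against 37.9% of all. CHR and CCAAT occurred together in 16 of 22 mitotic promoters (72.7%), against 7.7% of all. Matches that share letters were each counted, since a reversed E2F word can run into CCAAT. Promoters of these genes were richer in G and C, with a median of 57.8% against 52.7% for the table. A match of letters is a description and does not show binding.

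To show both promoter types, the last 200 bases before the start are given for 3 mitotic and 2 S-phase genes. The 3 mitotic genes had lower values after setanaxib, and the 2 S-phase genes, of the MCM helicase, had values on either side of 0. Of 10 mitotic promoters of genes with every setanaxib library below every vehicle library, 9 held a CHR word. Of the 12 other mitotic promoters 9 did too. Capitals mark CHR, CCAAT and E2F words on either strand, and a reversed CCAAT reads ATTGG, a reversed TTTGAA reads TTCAAA and a reversed E2F word reads, for example, GCGCCAA or GCGGGAA.
Mki67 (chr7:135716380-135716579, minus strand): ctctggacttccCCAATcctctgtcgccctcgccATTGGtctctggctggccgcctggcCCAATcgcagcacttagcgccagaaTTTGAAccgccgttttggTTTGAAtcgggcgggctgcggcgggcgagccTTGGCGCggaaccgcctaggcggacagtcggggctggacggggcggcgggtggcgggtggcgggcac
Top2a (chr11:99024190-99024389, minus strand): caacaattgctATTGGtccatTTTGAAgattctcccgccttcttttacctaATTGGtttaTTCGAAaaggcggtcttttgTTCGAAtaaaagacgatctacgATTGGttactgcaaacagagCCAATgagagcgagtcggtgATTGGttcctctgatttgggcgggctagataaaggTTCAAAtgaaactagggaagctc
Cdc20 (chr4:118437344-118437543, minus strand): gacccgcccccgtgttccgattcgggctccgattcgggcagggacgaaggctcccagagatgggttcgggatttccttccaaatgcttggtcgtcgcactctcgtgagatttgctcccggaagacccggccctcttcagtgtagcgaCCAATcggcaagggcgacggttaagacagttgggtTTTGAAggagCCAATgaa
Mcm5 (chr8:75109309-75109508, plus strand): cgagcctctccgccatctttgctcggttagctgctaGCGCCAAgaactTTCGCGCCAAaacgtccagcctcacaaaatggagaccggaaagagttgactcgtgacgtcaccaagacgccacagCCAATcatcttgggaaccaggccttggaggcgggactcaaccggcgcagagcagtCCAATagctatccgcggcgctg
Mcm7 (chr5:138171884-138172083, minus strand): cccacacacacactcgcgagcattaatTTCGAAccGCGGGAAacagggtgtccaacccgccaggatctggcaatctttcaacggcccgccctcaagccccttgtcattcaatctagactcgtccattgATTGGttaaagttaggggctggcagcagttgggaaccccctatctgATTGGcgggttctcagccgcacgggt
Within these bases Top2a held 4 CHR and 5 CCAAT matches and no E2F match. Mki67 held 2 CHR, 3 CCAAT and 1 E2F match, and Cdc20 1 CHR and 2 CCAAT matches. Mcm5 held 3 E2F matches, of which a pair overlap, and no CHR match. Mcm7, 1 of the 2 S-phase genes with a CHR word, held 1 CHR, 2 CCAAT and 1 E2F match.

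**Figure D1:**
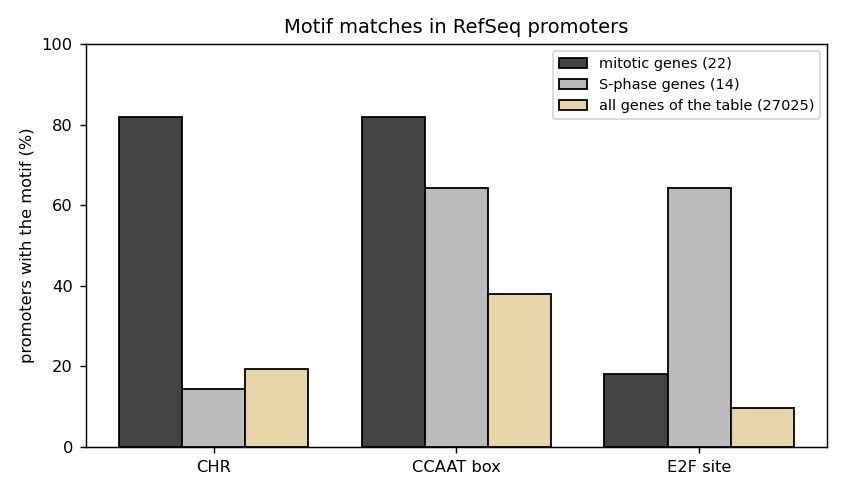
Share of promoters (%) that hold a CHR, CCAAT or E2F match, for 22 mitotic genes, 14 S-phase genes and all 27025 promoters of the table, in grouped bars. CHR matches were in 81.8% of mitotic and 14.3% of S-phase promoters, and E2F matches in 18.2% and 64.3%.

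Libraries held 110803307 to 154003318 estimated counts, and 1 CPM (a unit that puts libraries of unequal totals on one scale, here by trimmed mean of M values, TMM) stands for 121 to 146 estimated counts per library. The deposited values are estimates, and low genes were often listed at exactly 0: 23 of the 264 values of these genes were 0, spread over 9 genes, while the smallest value above 0 was 20. Setanaxib replicate 3, the library with the lowest total, listed 8 of the 44 genes at 0, and vehicle replicate 2, the library with the highest total, listed none of them. Over all genes tested the order was different, with 4.87% at 0 in setanaxib replicate 1 and 2.12% in setanaxib replicate 3. A listed 0 therefore may be a failed estimate, and genes with one are given by library. Of the 44 genes, 42 passed the filter on low counts and were tested with edgeR's quasi-likelihood test on all 20472 genes that passed. Ccnb1 passed it through the vehicle libraries alone, since only 1 setanaxib library was above 0.

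Most mitotic genes were lower after setanaxib, among them Mki67, Foxm1 and Kif23, and S-phase genes such as Pcna, Rrm1 and the MCM helicase lay on either side of 0, but no gene of either group passed edgeR's test after adjustment over all genes (lowest adjusted p = 0.356). Across the 20472 genes, 0.00488% passed, which is 1 gene. Of the 25 mitotic genes tested, 19 were lower and 6 higher, against 48.4% lower among all genes. Every setanaxib library was below every vehicle library for 11 of the 25, against 9.46% of all genes, and the opposite held for 1, Cenpf, against 8.11%. The median log2 fold change (setanaxib minus vehicle) was -0.53 for mitotic genes, -0.16 for S-phase genes and 0.01 for all genes. Of the 17 S-phase genes, 10 were lower, none with separate groups, and Mcm7 was higher with separate groups. At an unadjusted p under 0.05, 10 of the 42 passed, against 8.46% of all genes. They were 8 mitotic genes that were lower, against 4.69% of all genes, and Cenpf and the S-phase gene Ccne2, which were higher, against 3.76%. Among the 35 genes above 0 in every library, 24 were lower, against 47.3% of all such genes, 8 were lower at an unadjusted p under 0.05, against 4.96%, and 10 were lower with separate groups, against 9.4%. DESeq2 called 3 of the 44 at an adjusted p under 0.05, Kif23, Mki67 and Cenpf, against 2.43% of all genes.

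**Figure D2:**
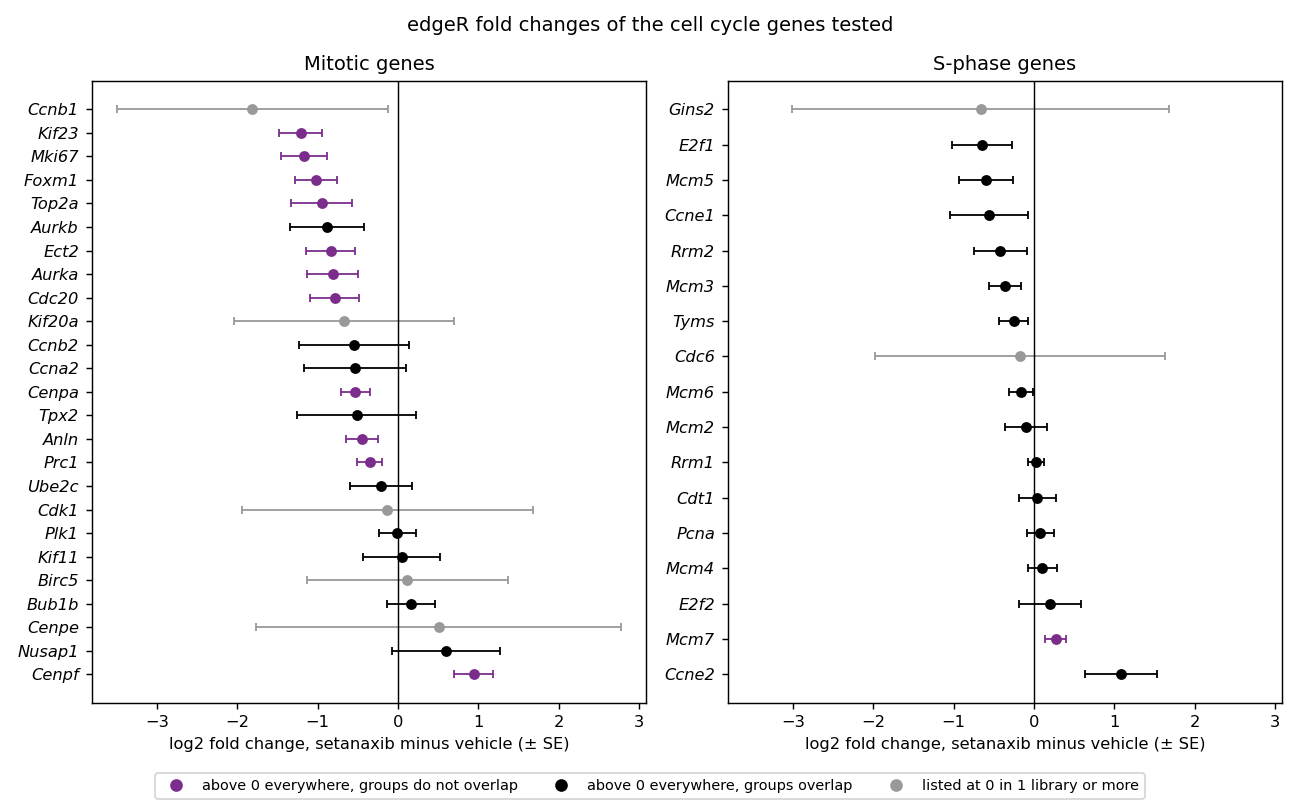
Log2 fold change (setanaxib minus vehicle) with its standard error for the 25 mitotic and 17 S-phase genes tested. Purple marks genes with separate groups, black genes with overlapping groups and grey genes listed at 0 in a library. Mitotic genes lie mostly left of 0 with Cenpf at 0.94, and S-phase genes lie around 0.

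Mki67 and Top2a, the proteins of the mitotic chromosome, had separate groups. Mki67, the source of the Ki-67 antigen by which dividing cells are counted, was at 7.11, 5.88 and 3.76 CPM in setanaxib replicates 1 to 3 and at 11.1, 16.0 and 10.3 CPM in vehicle replicates 1 to 3. Every setanaxib value lay below the lowest vehicle value. The means were 5.58 ± 1.70 and 12.5 ± 3.09 CPM (SD, n = 3 each), which gave a log2 fold change of -1.16, with an SE of 0.28 and an edgeR adjusted p of 0.389. Top2a, the topoisomerase that untangles sister chromosomes, was at 1.83, 2.11 and 0.789 CPM with setanaxib and at 2.61, 3.44 and 3.09 CPM with vehicle (log2 fold change -0.95, SE 0.38). Setanaxib replicate 3 was the lowest library for Mki67 and Top2a. The exons of Top2a overlap the small RNA gene Gm23451 on the same strand.

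Foxm1, the transcription factor that drives mitotic genes, was at 1.52, 0.989 and 0.941 CPM with setanaxib and at 2.22, 2.70 and 2.06 CPM with vehicle. The groups did not overlap (log2 fold change -1.02, SE 0.26, edgeR adjusted p = 0.413). The exons of Foxm1 overlap the genes Gm44596 and Tex52 on the same strand. E2f1, an activator of replication genes, was at 0.999, 1.75 and 0.933 CPM with setanaxib and at 2.01, 2.53 and 1.24 CPM with vehicle. Setanaxib replicate 2 lay above vehicle replicate 3, so the groups overlapped (log2 fold change -0.65, SE 0.38). E2f2, a further activating member of the family, had overlapping groups (log2 fold change 0.20, SE 0.38).

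Genes of the spindle midzone and of cytokinesis, which split the cell, were lower in 5 of 5 cases, with separate groups for 4, against 9.46% of all genes; the grouping by role was made after the values were seen. Kif23, the kinesin of the centralspindlin complex, was at 0.472, 0.441 and 0.569 CPM with setanaxib and at 0.989, 1.32 and 1.12 CPM with vehicle. The groups were far apart, and this was the gene of lowest p among the 42 tested (log2 fold change -1.21, SE 0.26, edgeR adjusted p = 0.356). Ect2, which centralspindlin recruits to start the contractile ring, was at 0.448, 0.510 and 0.478 CPM with setanaxib and at 0.701, 1.12 and 0.742 CPM with vehicle (log2 fold change -0.84, SE 0.31). The setanaxib libraries lay close together for Kif23 and Ect2, with SDs of 0.0668 and 0.0307 CPM. Prc1, which bundles midzone microtubules, averaged 2.40 ± 0.186 CPM with setanaxib and 3.06 ± 0.0456 CPM with vehicle (SD, n = 3 each). Anln, the ring scaffold anillin, averaged 1.90 ± 0.302 and 2.59 ± 0.255 CPM in setanaxib and vehicle hearts. Kif20a, the midzone kinesin, was listed at 0 in setanaxib replicate 3, and at 1.80 and 0.593 CPM in setanaxib replicates 1 and 2, against 0.717, 1.64 and 1.46 CPM with vehicle. Racgap1, the partner of Kif23 in centralspindlin and not among the 44, was named after its values were seen. It was at 0.692, 0.852 and 0.417 CPM with setanaxib and at 1.35, 1.67 and 0.978 CPM with vehicle, also with separate groups.

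**Figure D3:**
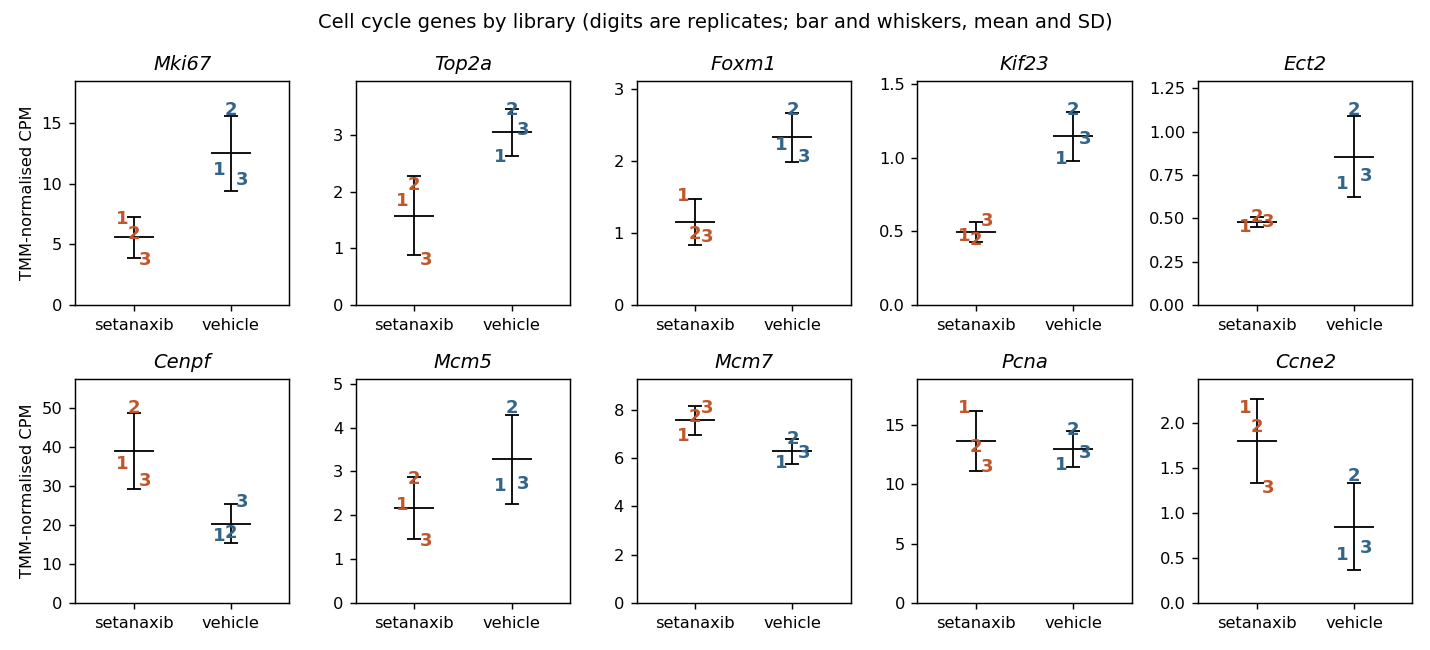
TMM-normalised CPM of 10 genes in the setanaxib and vehicle libraries, with digits for replicates and a bar with whiskers for the mean and SD (n = 3 each). The groups are separate for Mki67, Top2a, Foxm1, Kif23 and Ect2 (lower) and for Cenpf and Mcm7 (higher), and overlap for Mcm5, Pcna and Ccne2.

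The centromere genes Cenpa and Cenpf lay on opposite sides of 0. Cenpa, the histone variant that marks the centromere, was at 9.88, 15.8 and 12.0 CPM with setanaxib and at 18.5, 17.1 and 18.7 CPM with vehicle (log2 fold change -0.53, SE 0.18, edgeR adjusted p = 0.512). Cenpf, a large kinetochore protein, was at 35.7, 50.04 and 31.3 CPM with setanaxib and at 17.1, 17.8 and 26.01 CPM with vehicle. The groups were separate for both genes, on opposite sides. The log2 fold change of Cenpf was 0.94, with an SE of 0.24 and adjusted p of 0.396 by edgeR and 0.0167 by DESeq2, and no other mitotic gene was higher at an unadjusted p under 0.05. Cenpa and Cenpf were also the most abundant of the mitotic genes per length, at 2.14 and 2.53 CPM per kb of exon with setanaxib and at 3.09 and 1.32 CPM per kb with vehicle, while Mki67 was at 0.555 and 1.24 CPM per kb with setanaxib and vehicle. Cenpe, the kinetochore motor, was listed at 0 in setanaxib replicate 3 and in vehicle replicates 1 and 3, and at 0.881, 1.10 and 1.39 CPM in setanaxib replicates 1 and 2 and vehicle replicate 2.

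The cyclins and the kinase that start mitosis gave no clear difference. Cdk1, the kinase itself, was at 0.613 and 0.707 CPM and listed at 0 in setanaxib replicates 1, 2 and 3, and was listed at 0 and at 0.760 and 0.684 CPM in vehicle replicates 1, 2 and 3. Ccnb1, its main cyclin partner, was at 0.362 CPM in setanaxib replicate 1 and listed at 0 in setanaxib replicates 2 and 3, against 0.412, 0.465 and 0.397 CPM with vehicle. The groups of Ccnb1 were separate, those of Cdk1 overlapped, with a 0 in each. Ccna2, cyclin A2, was at 3.01, 1.13 and 0.448 CPM with setanaxib and at 2.12, 2.44 and 2.09 CPM with vehicle. Setanaxib replicate 1 was above all vehicle libraries and the other setanaxib libraries were below them (log2 fold change -0.53, SE 0.63). Ccnb2 showed a like order, with 1.07 CPM in setanaxib replicate 1 and 0.274 and 0.220 CPM in setanaxib replicates 2 and 3, against 0.463 to 0.915 CPM with vehicle.

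Mitotic kinases ranged from lower with separate groups to a value near 0. Aurka, which builds spindle poles, was at 0.888, 0.700 and 0.599 CPM with setanaxib and at 1.11, 1.74 and 0.992 CPM with vehicle, with separate groups (log2 fold change -0.81, SE 0.32). Aurkb, the kinase of the chromosomal passenger complex, was at 0.275, 0.418 and 0.212 CPM with setanaxib and at 0.470, 0.390 and 0.816 CPM with vehicle. Setanaxib replicate 2 exceeded vehicle replicate 2, so its groups overlapped (log2 fold change -0.89, SE 0.46). Plk1, a kinase needed from mitotic entry to exit, averaged 0.810 ± 0.0301 CPM with setanaxib and 0.814 ± 0.0271 CPM with vehicle (SD, n = 3 each). Its log2 fold change was -0.01 (SE 0.23), the value nearest 0 among the 42 tested. Birc5, survivin, a subunit of the passenger complex, had the lowest mean over the 6 libraries per length among the tested genes, at 0.0561 CPM per kb with setanaxib and 0.0517 CPM per kb with vehicle, and was listed at 0 in setanaxib replicate 3. Tpx2, the activator of Aurka, ranged from 0.418 to 2.37 CPM with setanaxib and from 0.742 to 2.63 CPM with vehicle.

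Of the checkpoint genes, Cdc20, the activator of the anaphase-promoting complex, had separate groups, with 0.763, 0.654 and 0.448 CPM in setanaxib hearts and 1.27, 1.05 and 0.897 CPM in vehicle hearts (log2 fold change -0.79, SE 0.31). Ube2c, the ubiquitin-conjugating enzyme of that complex, and Bub1b, a kinase-like protein of the spindle checkpoint, had overlapping groups, at -0.21 (SE 0.39) and 0.16 (SE 0.30) as log2 fold changes. Bub1 was above 0 in vehicle replicate 2 alone, at 0.520 CPM, and Kif2c, a kinesin that takes microtubules apart, in vehicle replicates 2 and 3 alone, at 0.363 and 0.375 CPM. Neither was tested. The spindle genes Kif11 and Nusap1 were fitted as higher, at a log2 fold change of 0.05 with an SE of 0.48 for Kif11 and of 0.60 with an SE of 0.67 for Nusap1, and their groups overlapped. Nusap1 reached 5.19 CPM in setanaxib replicate 1, against 0.804 to 2.01 CPM in the other 5 libraries.

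Replication genes stayed closer together. The 6 subunits of the MCM helicase, which opens DNA at the fork, had log2 fold changes from -0.60 to 0.27, 4 lower and 2 higher. Mcm5 was at 2.24, 2.83 and 1.41 CPM with setanaxib and at 2.68, 4.45 and 2.70 CPM with vehicle, and setanaxib replicate 2 lay above vehicle replicates 1 and 3. Mcm7 was at 6.92, 7.70 and 8.07 CPM with setanaxib and at 5.80, 6.80 and 6.22 CPM with vehicle (log2 fold change 0.27, SE 0.13, edgeR adjusted p = 0.641). It was the S-phase gene with separate groups, and its exons overlap the genes Ap4m1 and Cops6 on the other strand. Mcm3 averaged 5.39 ± 0.995 CPM with setanaxib and 6.92 ± 1.24 CPM with vehicle (SD, n = 3 each), with overlapping groups. Mcm2 was at 7.20, 6.43 and 4.53 CPM with setanaxib and at 6.82, 7.96 and 4.71 CPM with vehicle (log2 fold change -0.10, SE 0.26). Subunits of 1 complex thus had fitted values on either side of 0, and no difference between them was tested. The log2 fold change was 0.10 (SE 0.18) for Mcm4 and -0.16 (SE 0.15) for Mcm6.

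Pcna, the sliding clamp of DNA polymerase, was the most abundant of the 44 per length, at 5.70 CPM per kb with setanaxib and 5.40 CPM per kb with vehicle. It was at 16.4, 13.1 and 11.5 CPM with setanaxib and at 11.6, 14.6 and 12.7 CPM with vehicle (log2 fold change 0.08, SE 0.17), and the reference names 2 pseudogenes of it, Pcna-ps1 and Pcna-ps2, that can share its reads. Rrm1, the large subunit of ribonucleotide reductase, which makes the building blocks of DNA, averaged 9.36 ± 0.283 CPM with setanaxib and 9.20 ± 0.394 CPM with vehicle (SD, n = 3 each). Its SE of 0.10 was the smallest among the 42 tested. Rrm2, the subunit made mainly in S phase, was at 1.25, 1.91 and 0.903 CPM with setanaxib and at 1.58, 2.22 and 1.62 CPM with vehicle, with overlapping groups (log2 fold change -0.42, SE 0.33). Tyms, thymidylate synthase, had overlapping groups (log2 fold change -0.25, SE 0.18).

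Cyclin E genes differed in sign. Ccne1 was at 0.841, 0.920 and 0.288 CPM with setanaxib and at 0.882, 1.32 and 0.809 CPM with vehicle (log2 fold change -0.55, SE 0.49). Ccne2 was at 2.16, 1.95 and 1.27 CPM with setanaxib and at 0.527, 1.40 and 0.610 CPM with vehicle (log2 fold change 1.08, SE 0.45, edgeR adjusted p = 0.591). Setanaxib replicate 3 lay below vehicle replicate 2, so the groups of Ccne2 overlapped, and its exons overlap Ints8 on the other strand. Of the licensing factors, which load the helicase at origins, Cdt1 had a log2 fold change of 0.04 (SE 0.23). Cdc6 was listed at 0 in setanaxib replicate 3 and vehicle replicate 1, and at 0.517 to 0.732 CPM in the other libraries. Gins2, a subunit of the active helicase, was listed at 0 in setanaxib replicates 1 and 2 and in vehicle replicate 3, at 2.46 CPM in setanaxib replicate 3, and at 0.964 and 2.93 CPM in vehicle replicates 1 and 2. Zeros of Cdc6 and Gins2 fell in either group and leave SEs of 1.80 and 2.34.

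The libraries of a group were not alike. The level of a gene group in a library was taken as the mean log2 CPM of its genes above 0 in every library, relative to the mean of the 6 libraries. A filter of this kind leaves out genes that dropped to 0. For the 20 such mitotic genes it was 0.18, -0.29 and -0.67 in setanaxib replicates 1 to 3 and 0.19, 0.47 and 0.14 in vehicle replicates 1 to 3. Setanaxib replicate 1 thus lay between vehicle replicates 1 and 3, while setanaxib replicates 2 and 3 lay below all vehicle libraries. For the 15 S-phase genes it was -0.0046, 0.12 and -0.25 with setanaxib and -0.05, 0.34 and -0.16 with vehicle, and the groups overlapped. The mitotic level exceeded the S-phase level by 0.18 in setanaxib replicate 1, was below it by 0.41 and 0.42 in setanaxib replicates 2 and 3, and exceeded it by 0.23, 0.12 and 0.29 in the vehicle libraries. Of the 35 genes above 0 everywhere, 19 were lowest in setanaxib replicate 3 (54.3%), against 25.1% of all genes above 0 everywhere, and 18 were highest in vehicle replicate 2 (51.4%), against 17.3%. These are the libraries of lowest and highest total estimated counts. After scaling, 1 CPM stood for 127, 131 and 132 estimated counts in setanaxib replicates 1 to 3 and for 121, 146 and 136 in vehicle replicates 1 to 3. Setanaxib replicate 3 listed the most genes above 0, 22253. It also had the lowest share of counts from the mitochondrial genome, 20.5%, against 23.5% to 30.0% in the others. The part of depth or of that share in the pattern was not tested.

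**Figure D4:**
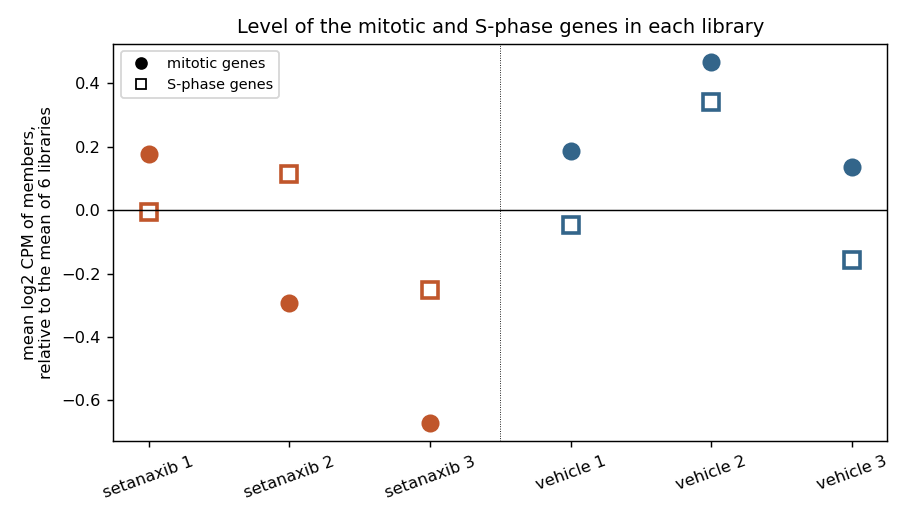
Mean log2 CPM of 20 mitotic genes (filled circles) and 15 S-phase genes (open squares) in each library, relative to the mean of the 6 libraries. Mitotic genes are lowest in setanaxib replicate 3, at -0.67, and highest in vehicle replicate 2, at 0.47, and setanaxib replicate 1 lies among the vehicle libraries.

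Leaving out single libraries moved the size of the mitotic difference more than its direction. The mitotic median of -0.53 became -0.81 without setanaxib replicate 1 and -0.30 without setanaxib replicate 3, and lay between -0.55 and -0.40 without any of the other libraries. Between 17 and 24 of the 25 or 26 mitotic genes tested were lower in these fits. Of them 11 to 14 were lower with separate groups, against 12.5% to 18.0% of all genes in the same fits. These counts include genes that passed the filter through the vehicle libraries alone. Of the 20 mitotic genes above 0 in every library, 15 to 19 were lower and 10 to 12 were lower with separate groups. With all libraries these counts were 16 and 10, against 47.3% and 9.4% of all genes above 0 in every library. Such shares were not taken for the fits with a library left out. The 8 mitotic genes that were lower at an unadjusted p under 0.05 became 10 without setanaxib replicate 1, 5 without setanaxib replicate 2, 4 without setanaxib replicate 3, and 5, 4 and 4 without vehicle replicates 1, 2 and 3. With all libraries the count over all genes was 961 of 20472. It was 1123 of 20985, 1100 of 21068 and 1651 of 20880 without setanaxib replicates 1, 2 and 3. Without vehicle replicates 1, 2 and 3 it was 652 of 21024, 565 of 20899 and 710 of 21018. For the 20 mitotic genes above 0 in every library, 8 were lower at an unadjusted p under 0.05 with all libraries, against 4.96% of all such genes. The count of 8 became 9 without setanaxib replicate 1, 5 without setanaxib replicate 2 and 4 without any single one of the other libraries. The S-phase median of -0.16 changed sign without vehicle replicate 2, to 0.07, and was -0.09 without setanaxib replicate 3. Of the 42 genes tested, 26 kept their direction in all 13 alternative settings, among them 16 mitotic and 7 S-phase genes that were lower. The settings refit the same libraries, so they are no independent support, and no share over all genes was taken.

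**Figure D5:**
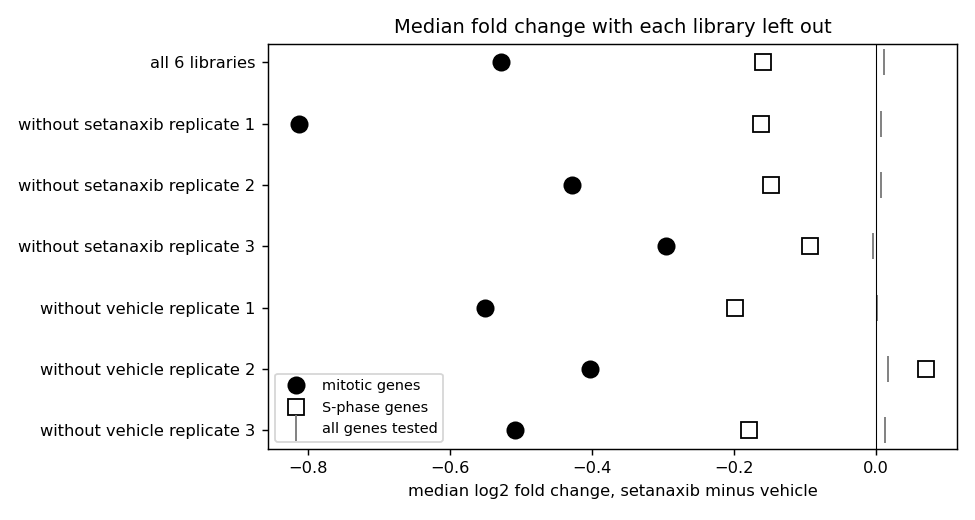
Median log2 fold change (setanaxib minus vehicle) of the mitotic genes (filled circles), the S-phase genes (open squares) and all genes tested (grey ticks), with all 6 libraries and with each left out. The mitotic median stays below 0, from -0.81 to -0.30, and the S-phase median is above 0, at 0.07, without vehicle replicate 2.

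Further genes of mitosis were mostly lower. Their list was chosen with earlier results of these data known, so it is no independent support. Of a list of 57 further mitotic genes, 39 were tested, 33 of them lower and 6 higher, with a median log2 fold change of -0.67, and 10 were lower at an unadjusted p under 0.05, against 4.69% of all genes. Their groups were separate for 16 lower genes and 1 higher gene, against 9.46% and 8.11% of all genes. These counts include genes that passed the filter through the vehicle libraries alone. Of the 27 above 0 in every library, 22 were lower, with a median of -0.28, 6 were lower at an unadjusted p under 0.05 (4.96% of all such genes) and 8 were lower with separate groups (9.4%). Without vehicle replicate 2 the median of these 27 was -0.16, 19 were lower and 2 were lower at an unadjusted p under 0.05. The kinesins Kif4 and Kif18b, the kinase Melk and the spindle protein Troap were listed at 0 in all 3 setanaxib libraries and were above 0 in all 3 vehicle libraries. Kif4 was at 0.791, 1.10 and 0.779 CPM with vehicle, Kif18b at 0.478, 1.17 and 0.757 CPM, Melk at 0.396, 0.424 and 0.426 CPM and Troap at 0.321, 0.342 and 0.529 CPM. Their vehicle means ran from 0.398 to 0.888 CPM, and this range was drawn from the 4 genes themselves, so all 4 lie in it. With no vehicle value at 0, it holds 20 listed mitotic genes, these 4 among them, and 6 of the 44 genes. Of 2113 genes of the matrix so chosen, 15 (0.71%) were at 0 in all setanaxib libraries. The shares are no test of the list, because the range follows from the 4 genes. Over the whole matrix 61 genes were at 0 in all setanaxib and above 0 in all vehicle libraries, and 28 had the reverse pattern. Troap falls outside the rule for naming genes and was named after its values were seen. Each of the 4 had an edgeR adjusted p of 0.234, and no fold is given against values listed at 0. Of the 44 genes none was at 0 in all setanaxib and above 0 in all vehicle libraries. Pttg1, securin, the most abundant further mitotic gene by CPM, had a log2 fold change of 0.13.

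Other replication genes and regulators gave medians near 0. Of 16 tested genes of origin licensing and firing, 7 were lower and 9 higher (median log2 fold change 0.01), led by Rpa2, Orc6 and Orc5 by p, at 0.37 (SE 0.15), 0.39 (SE 0.17) and -0.34 (SE 0.21). Of 26 tested genes of the fork and of nucleotide supply, 12 were lower and 14 higher (median 0.03). Among them the polymerase subunit Pold1 was at 1.25, 4.07 and 2.01 CPM with setanaxib and at 7.81, 8.27 and 7.22 CPM with vehicle, with separate groups (log2 fold change -1.67, SE 0.42, edgeR adjusted p = 0.396). Of 25 tested regulators of the G1 phase, 13 were lower and 12 higher (median -0.01). Ccnd1, cyclin D1, was at 38.1, 36.9 and 29.5 CPM with setanaxib and at 60.0, 59.9 and 52.8 CPM with vehicle (log2 fold change -0.73, SE 0.12, edgeR adjusted p = 0.276). Ccnd2, cyclin D2, was also lower with separate groups (log2 fold change -0.25, SE 0.09). Tfdp2, a partner of E2F factors, was higher with overlapping groups (log2 fold change 0.58, SE 0.19). At an unadjusted p under 0.05, 2 of the 25 regulators were lower and 2 higher, against 4.69% and 3.76% of all genes. Groups were separate for 2 lower and 2 higher regulators, against 9.46% and 8.11% of all genes. The second higher gene by p, Rbl2, and Cdk2, both named after their values were seen, were higher with separate groups (log2 fold changes 0.25 and 0.21, SEs 0.10 and 0.13). Of 7 tested inhibitors of cyclin-dependent kinases, 4 were lower and 3 higher. Cdkn1a, which encodes p21, was at 262 CPM in setanaxib replicate 1 and at 29.3 and 7.57 CPM in setanaxib replicates 2 and 3, against 24.4, 24.6 and 32.8 CPM with vehicle.

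Markers of other cell types were read in the same libraries. Summed levels of 12 macrophage markers were 234, 280 and 249 CPM in setanaxib replicates 1 to 3 and 365, 457 and 361 CPM in vehicle replicates 1 to 3, with 11 of 12 lower and the same 11 separate between groups, against 9.46% of all genes. Vehicle replicate 2 was highest for macrophage, neutrophil and erythroid markers and for both cell cycle groups. Fibroblast markers summed to 1562, 1887 and 2829 CPM with setanaxib and to 2743, 1942 and 2747 CPM with vehicle, with overlap in the sum, 11 of 12 lower (48.4% of all genes) and 6 lower with separate groups (9.46%). Endothelial markers summed to 840 to 1235 CPM with setanaxib and 1039 to 1161 CPM with vehicle, and heart muscle cell markers to 69069 to 96747 CPM and 87627 to 92339 CPM. Markers of smooth muscle cells and pericytes summed to 827 to 1258 CPM with setanaxib and 1145 to 1270 CPM with vehicle. Of these 10 markers, 9 were lower (48.4% of all genes) and 5 were lower with separate groups (9.46%). Of 12 endothelial markers 8 were lower, 1 with separate groups, and of 10 heart muscle cell markers 6 were lower, 2 with separate groups. Among all genes 48.4% were lower, and 9.46% were lower with separate groups. The part of these cells in the cell cycle values was not tested. The lowest values of heart muscle cells and of smooth muscle cells and pericytes were both in setanaxib replicate 3, the library in which 19 of the 35 cell cycle genes were lowest. Of 8 thymus markers, 6 were listed at 0 in all libraries (Rag2, Dntt, Ptcra, Themis, Foxn1 and Psmb11), as were all 9 markers of regenerating skeletal muscle and 5 of 12 T and NK cell markers, Cd3e and Cd3g among them. The T and NK cell markers summed to 1.61 to 3.35 CPM with setanaxib and 1.26 to 2.21 CPM with vehicle. The other thymus markers, Rag1 and Cd1d1, were both highest in setanaxib replicate 3, and the thymus sum was 5.90 CPM there, 0.959 and 1.40 CPM in setanaxib replicates 1 and 2, and 1.05, 1.84 and 1.01 CPM with vehicle. B and plasma cell markers summed to 3.17, 8.62 and 43.3 CPM in setanaxib replicates 1 to 3 and to 15.4, 16.2 and 13.4 CPM with vehicle, so setanaxib replicate 3 was again highest. Neutrophil markers summed to 5.03 to 7.67 CPM and 4.59 to 10.9 CPM, and erythroid markers to 3301 to 4847 CPM and 2766 to 5247 CPM.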

How the data were processed

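RNA was measured in 6 heart libraries, 3 per group. The authors deposited estimated counts per gene. They are whole and unscaled, so none was rounded. The submitters' processing notes name the build GRCm39 and the tools STAR 2.5.4b, FastQC 0.11.9, DESeq2 1.42.0 and featureCounts 2.0.1 without saying which made the table. Per the file headers, names have the form of StringTie's count script. The sources used here do not give the strand setting. The exons of 12 of the 44 genes overlap another gene in GENCODE M21 (GRCm38), so their values are uncertain. Among them are Foxm1 and Top2a, with overlaps on the same strand, and Cdc20, Prc1 and Ccna2, with overlaps on the other strand. Exon lengths come from that release. Per the labels' protocols, 1 µg of total RNA per library was read as paired ends of 150 bases.

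In R 4.3.3, genes were kept by edgeR 4.0.16's filterByExpr (minimum count 10), scaled by TMM, and tested (setanaxib minus vehicle, two-sided) by its quasi-likelihood F test. The p-values were adjusted after Benjamini and Hochberg over all genes, with a threshold of 0.05. SEs derive from that F statistic. Library levels use a prior count of 2. DESeq2 1.42.0 and limma 3.58.1 were alternatives. The test was checked on simulated counts with less spread than most of these genes had and without failed estimates. That check does not cover genes with wide spread or with values listed at 0. The design had assumed raw counts, and the same test was kept. Replicates are numbered in record order, which pairs nothing. Values by library are given for 20 genes chosen by rule, 13 by role and the others as the 4 of lowest p and the 2 of highest CPM in each group, and for others as the text needs. The members and lists were chosen with earlier results of these data known, the grouping by role after the values were seen.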

Additional observations from a re-analysis of the deposited data

How the results depend on the processing

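Scaling by RLE or upper-quartile factors, leaving out the genes of the mitochondrial genome, or applying no low-count filter kept the counts of genes lower and of separate groups within 1.5 times. The mitotic median ran from -0.54 to -0.50 in these fits and the S-phase median from -0.16 to -0.13. The spread between replicates (pooled SD of library levels, 0.693 and 0.353) was larger than the medians. A move below that spread therefore does not show that a median held. edgeR called 1 of all genes and none of the 44; DESeq2 called 494 and 3, limma-voom 0 (1962 at an unadjusted p under 0.05) and limma-voom with library weights 0 (2931). The mitotic median was -0.79 with limma-voom, and the S-phase median -0.0098 with library weights, which gave 0.341 and 0.325 to setanaxib replicates 1 and 3. The cause was not tested. Without single libraries edgeR called 0 to 1 of all genes, and 0 without vehicle replicate 1, 2 or 3. Of the 42 or 43 cell cycle genes tested, 5 to 13 had an unadjusted p under 0.05. With all libraries 10 did, against 8.46% of all genes. Without setanaxib replicates 1, 2 and 3 there were 13, 7 and 6, against 2126 of 20985, 2088 of 21068 and 2834 of 20880 genes. Without vehicle replicates 1, 2 and 3 there were 6, 6 and 5, against 1025 of 21024, 990 of 20899 and 1182 of 21018 genes. Over the 13 alternatives the adjusted p ran from 0.00883 to 0.863 for Kif23, from 0.0150 to 0.907 for Mki67 and from 0.0167 to 0.994 for Cenpf, and their signs held. Of the 20 genes chosen by rule, 4 changed sign somewhere. With library weights Cdk1 was at 2.39, Mcm2 at 0.016 and Rrm1 at -0.0098. Leaving out single libraries gave -0.72 to 0.46 for Cdk1, -0.29 to 0.073 for Mcm2, -0.082 to 0.19 for Pcna and -0.0065 to 0.050 for Rrm1. Counts over genes above 0 in every library were added after seeing the data, with 24 of 35 lower. Genes under about 1 CPM are limited by values listed at 0. No paired analysis was possible because the labels give the groups no shared replicate numbers.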

Other observations

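The median biological coefficient of variation (the square root of edgeR's gene-wise dispersion) was 0.346 for the 20 mitotic genes and 0.267 for the 15 S-phase genes above 0 in every library, against 0.246 for all genes above 0 in every library. These medians were not matched on abundance, and no difference between them was tested.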
